A study of Mus musculus with 90 samples.

Results

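The genes described here are antiviral effectors that interferon raises, a set of 45 mouse genes named by symbol. Of these, 30 had a probe on the arrays, among 10698 named genes with one, and 24 had enough values to be tested, among 11600 features tested. RAW 264.7 cells, a macrophage line from mouse, received 1 of 5 treatments for 1, 2 or 4 h, and every treated RNA was compared with time-matched untreated RNA on the same array. The treatments were bacterial lipopolysaccharide (LPS, 100 ng/ml), interferon gamma (IFG, 5 nM), 2-methyl-thio-ATP (2MA, 500 uM, an agonist of purine receptors), LPS with IFG (LPS+IFG) and LPS with 2MA (LPS+2MA). Lipid binding protein at 100 pM appears in the labels of LPS alone and not in those of the combinations, so each comparison of a combination with LPS may also differ in that protein. Each of the 15 conditions had 3 numbered sets, and each set had 2 arrays with the dyes exchanged, 90 arrays in all. Both arrays of a set were averaged into 1 replicate, so n = 3 where every value was present. All the cells come from a single line. Separate cultures are not stated for the sets, nor is it stated whether treatments had untreated RNA in common, so a p-value here may cover no more than technical spread between samples. All values below are log2 ratios of treated over untreated RNA, so 1 stands for a ratio of 2 and 0 for no difference. They were taken as positive where treated RNA was higher, which is likely but not stated by the submitters. A gene was called higher or lower where limma's adjusted p was under 0.05 and the difference was at least 2-fold, and only then is it said to have risen or fallen. These are whole cultures, in which fewer responding cells and less RNA per cell cannot be told apart.

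Macrophages sense LPS through Toll-like receptor 4 and answer with type I interferon, which acts back on the cells through its own receptor, STAT2 and IRF9. A well-known target sequence of this branch is the interferon-stimulated response element (ISRE), while interferon gamma acts mainly through gamma-activated sites (GAS) and through IRF1, which can bind ISRE-like sequences. The effectors made in response tag proteins with ISG15, sense or destroy viral RNA and DNA, starve viruses of nucleotides, or trap viral components. Purine nucleotides outside the cell signal through receptors of their own.

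Promoter sequence, from 250 bases before to 50 bases after a transcription start, was available from RefSeq (build GRCm38.p6) for 20 of the 30 measured members, with 28 promoters among them. The ISRE core (GAAA, any 2 bases, GAAA), searched on both strands and with overlapping matches counted, was in 8 of the 28 promoters (28.6%), those of 8 genes, against 3.44% of all 32851 promoters of this length. The GAS letters TTCNNNGAA, which read the same on both strands, were in 6 of the 28 (21.4%) against 8.30% of all promoters. A match describes the letters in the window and is not evidence that a factor binds there. Of 5 promoters shown, 4 hold the core and carry it at different distances from the start, and Slfn2, the only tested member that rose at 1 h of LPS, holds none. Ifih1, which holds the core and was not tested for missing values, had a mean log2 ratio of 1.99 at 1 h of LPS, against 1.77 for Slfn2. Capitals mark the ISRE core on either strand, and all are printed 5′ to 3′ on the strand of the gene.
Isg15 (chr4:156200769-156201068, minus strand): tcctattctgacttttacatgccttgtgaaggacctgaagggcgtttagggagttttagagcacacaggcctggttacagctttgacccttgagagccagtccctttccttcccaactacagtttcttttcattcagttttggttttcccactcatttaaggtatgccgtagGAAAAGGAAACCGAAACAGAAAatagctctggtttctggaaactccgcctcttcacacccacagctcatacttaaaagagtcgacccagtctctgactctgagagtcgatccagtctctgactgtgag
Oas1a (chr5:120907476-120907775, minus strand): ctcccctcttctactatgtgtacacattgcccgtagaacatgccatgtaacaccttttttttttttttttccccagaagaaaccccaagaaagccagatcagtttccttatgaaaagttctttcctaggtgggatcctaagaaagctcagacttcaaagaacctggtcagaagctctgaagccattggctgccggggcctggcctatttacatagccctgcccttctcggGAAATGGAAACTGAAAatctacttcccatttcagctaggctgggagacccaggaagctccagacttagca
Ifi203 (chr1:173942443-173942742, minus strand): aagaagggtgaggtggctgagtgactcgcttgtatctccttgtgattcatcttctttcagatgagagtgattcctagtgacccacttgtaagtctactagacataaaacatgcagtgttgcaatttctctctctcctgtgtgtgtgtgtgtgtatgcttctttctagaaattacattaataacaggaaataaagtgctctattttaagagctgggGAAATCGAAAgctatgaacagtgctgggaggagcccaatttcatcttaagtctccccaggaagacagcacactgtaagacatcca
Ifih1 (chr2:62646206-62646505, minus strand): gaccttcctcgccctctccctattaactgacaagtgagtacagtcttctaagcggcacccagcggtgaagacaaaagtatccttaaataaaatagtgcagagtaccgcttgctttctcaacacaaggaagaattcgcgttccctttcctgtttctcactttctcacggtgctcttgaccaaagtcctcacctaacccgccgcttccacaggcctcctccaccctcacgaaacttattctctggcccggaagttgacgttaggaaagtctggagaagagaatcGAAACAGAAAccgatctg
Slfn2 (chr11:83064862-83065161, plus strand): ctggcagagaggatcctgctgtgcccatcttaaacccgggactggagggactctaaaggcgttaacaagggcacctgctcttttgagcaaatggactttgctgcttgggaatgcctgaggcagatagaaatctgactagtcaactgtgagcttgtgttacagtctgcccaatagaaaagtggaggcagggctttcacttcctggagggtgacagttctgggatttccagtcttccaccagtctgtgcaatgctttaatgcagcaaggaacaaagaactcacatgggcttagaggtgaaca
The Isg15 promoter held 3 overlapping matches, the first starting at position -78, counting the transcription start as 0. The first of 2 overlapping matches in Oas1a started at -20, the single match in Ifi203 at -35, and the single match in Ifih1 at 32, downstream of the start. At 4 h of LPS, the 6 tested members with the core had a median log2 ratio of 2.01 and the 9 with a promoter but no core one of 1.96. At 4 h of IFG these medians were 0.78 and 1.30. At 2 h they were 0.54 with the core and 0.33 without it after LPS, and 0.81 and 0.86 after IFG. In neither group were the tested members without a promoter sequence: Dhx58, Ifi204, Mx1, Mx2, Parp9, Parp14, Rtp4, Tor3a and Zbp1. Among them is Ifi204, which had the highest mean of all tested members at 4 h of LPS, so the medians do not describe the whole set.

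Of the 24 tested effectors, 23 rose at 1 or more times after LPS and 17 after IFG, against 4.17% and 1.89% of all features. The set was named for genes that interferon raises, with earlier results of these data known, so these shares are no test of it. More were called after IFG at 1 and 2 h and after LPS at 4 h. After LPS, 1 of the 24 tested members was called higher at 1 h, 10 at 2 h and 23 at 4 h, where 1.03%, 1.84% and 3.64% of all features tested were. After IFG the counts were 4, 13 and 14, against 0.353%, 1.06% and 1.69% of all features. LPS+IFG gave 9, 17 and 21 members, against 1.69%, 3% and 4.58%. LPS+2MA gave 2, 11 and 23 members, against 1.15%, 2.22% and 4.69%. No member was called after 2MA alone at any time, where 0.259%, 0.319% and 0.112% of all features were called higher. No member was called lower than untreated cells in any of the 15 conditions. At 1, 2 and 4 h, the shares of all features called lower were 0.0517%, 0.371% and 1.17% for LPS, 0.0259%, 0.0172% and 0.172% for IFG and 0.069%, 0.00862% and 0.0345% for 2MA. They were 0.155%, 0.741% and 2.13% for LPS+IFG and 0.0776%, 0.552% and 1.9% for LPS+2MA. The median log2 ratio of the 24 members was 0.05, 0.76 and 2.24 over the LPS time course and 0.56, 1.22 and 1.19 over that of IFG, while the median of all features lay between -0.01 and 0.01 in each condition.

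**Figure D1:**
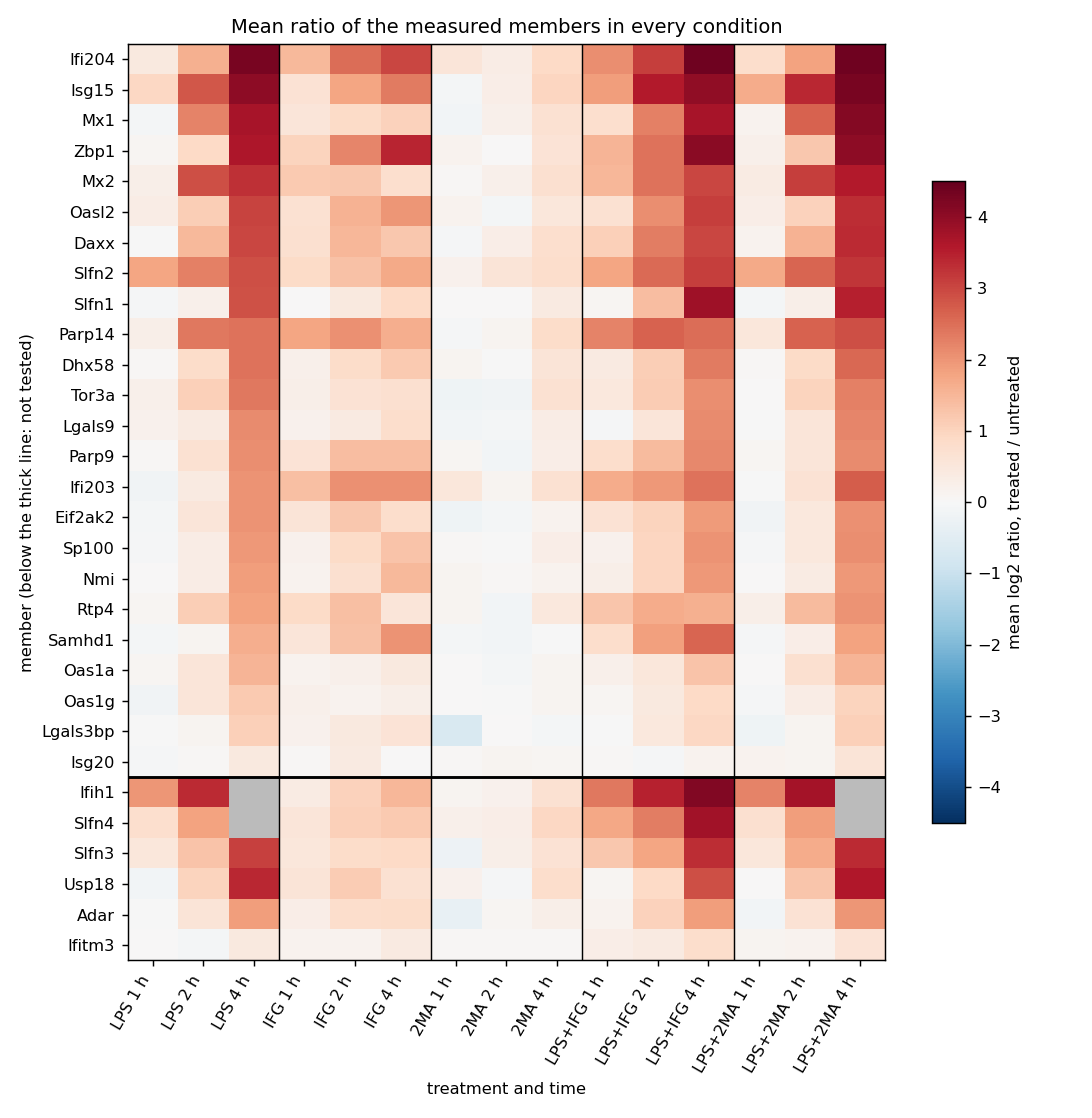
Mean log2 ratio of treated over untreated RNA (colour) for the 30 measured effectors (rows) in the 15 treatment and time conditions (columns); the thick line separates the 24 tested members from the 6 that were not tested, and grey marks a condition with no value. The LPS columns deepen from 1 to 4 h, where the tested members run from 0.45 (Isg20) to 4.27 (Ifi204), while the 2MA columns stay pale, with no tested member above 0.97.

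Isg15, the ubiquitin-like modifier that is conjugated to host and viral proteins, was among the members with the largest ratios. Its replicates read 4.21, 3.74 and 4.10 after LPS and 2.33, 2.06 and 2.64 after IFG at 4 h. Every LPS replicate lay above every IFG replicate, with means of 4.02 ± 0.25 (SD, n = 3) and 2.34 ± 0.29 (SD, n = 3), or 16.2-fold and 5.08-fold over untreated cells. Among the sensors of viral RNA, Dhx58 (LGP2), a helicase that tunes RIG-I-like receptor signalling, read 2.37, 2.83 and 2.08 after LPS and 0.71, 1.42 and 1.39 after IFG. Its values did not overlap either, and both means, 2.43 and 1.17, were called higher (adjusted p = 5.69e-15 and 8.54e-07). Zbp1, a sensor of Z-form nucleic acids that can trigger cell death, read 4.06, 4.15 and 2.68 after LPS and 3.41, 3.85 and 3.05 after IFG. Here the groups overlapped, since the lowest LPS replicate lay below all 3 IFG replicates, and the means of 3.63 and 3.43 stood for 12.4-fold and 10.8-fold. Zbp1 had the largest mean ratio of all tested members after IFG at 4 h. Eif2ak2 (PKR), the kinase that halts translation when it binds double-stranded RNA, read 2.02, 2.27 and 1.72 after LPS and 0.34, 0.90 and 1.12 after IFG, and at that time only its LPS mean of 2.00 reached the 2-fold threshold.

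The oligoadenylate synthetases make the second messenger that activates RNase L, the nuclease that degrades viral and cellular RNA. Oas1a read 1.47, 1.61 and 1.52 after LPS and 0.46, 0.32 and 0.53 after IFG at 4 h. It rose after LPS (mean 1.54, SE 0.12, adjusted p = 2.99e-13), and its IFG mean of 0.44 was below 2-fold. Oas1g, a close paralogue, read 1.55, 1.05 and 0.97 after LPS and 0.16, 0.05 and 0.64 after IFG, and it too was called only after LPS. Oas1a and Oas1g are near-identical genes whose probes may share signal, so their separate values are uncertain. Oasl2, a member of the family with ubiquitin-like domains, read 3.10, 3.61 and 2.37 after LPS and 1.59, 2.09 and 2.25 after IFG. It had the largest ratios of the 3 measured family members after both stimuli, with means of 3.03 ± 0.62 (SD, n = 3) and 1.98 ± 0.34 (SD, n = 3), and its replicates did not overlap between the stimuli.

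The Mx genes encode dynamin-like GTPases that trap viral nucleocapsids, and among the tested members they had the largest differences between LPS and IFG at 4 h. Mx1 read 4.04, 3.46 and 3.59 after LPS and 1.07, 1.18 and 0.87 after IFG at 4 h. Mx2 read 3.09, 3.51 and 3.27 after LPS and 0.39, 1.19 and 0.68 after IFG. For both genes every LPS replicate lay far above every IFG replicate. The LPS means were 3.70 and 3.29, and of the IFG means only that of Mx1, 1.04 (SE 0.19, adjusted p = 0.00011), was called; it lies close to the threshold and was 0.97 without IFG 4 h replicate 2 and 0.95 with the spread of all arrays set equal. The 2 probes of Mx1 differed, with 4.60 and 2.80 at 4 h of LPS, and 0.12 and 0.95 at 1 h of IFG.

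Samhd1, a hydrolase that depletes the nucleotides needed for reverse transcription, had the higher mean after IFG. Its replicates read 1.70, 2.01 and 1.14 after LPS and 2.03, 1.94 and 2.06 after IFG at 4 h. The highest LPS replicate reached into the range of the IFG replicates. The means were 2.01 after IFG and 1.62 after LPS, and their difference was not called. Isg20, an exonuclease that degrades single-stranded RNA, read 0.49 and 0.41 after LPS and -0.24 and 0.26 after IFG with n = 2 in each. It was the only one of the 24 tested members not called in any condition. Its largest ratios, 0.59 after LPS+2MA at 4 h and 0.45 after LPS at 4 h, were below 2-fold.

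Ifi204 and Ifi203 belong to the p200 family of DNA-binding proteins, in which Ifi204 is known to sense cytoplasmic DNA. Ifi204 read 4.59, 4.42 and 3.81 after LPS and 2.97, 2.99 and 3.11 after IFG at 4 h. It had the largest mean of any tested member after LPS, 4.27 ± 0.41 (SD, n = 3) or 19.3-fold (adjusted p = 7.58e-20), and all its LPS replicates lay above all IFG replicates (IFG mean 3.02, 8.12-fold). Ifi203 read 1.50, 2.38 and 2.20 after LPS and 2.01, 1.72 and 2.46 after IFG. Its replicates overlapped, and the means were nearly equal at 2.03 and 2.06. These genes lie in a cluster of similar sequences, and cross-hybridisation between them was not tested. Parp14, an ADP-ribosyltransferase of the macro-domain group, read 2.04, 2.29 and 2.98 after LPS and 1.25, 1.97 and 1.70 after IFG, with every LPS value above every IFG value. Parp9, a related protein that works with the ubiquitin ligase DTX3L, read 2.22, 2.41 and 1.61 after LPS and 1.19, 1.34 and 1.67 after IFG, and its LPS replicate 3 lay inside the IFG range. Both genes rose after both stimuli.

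The Schlafen genes encode proteins known for restraining cell growth and viral translation. Slfn1 read 3.92, 2.71 and 2.01 after LPS and 0.89, 0.55 and 1.24 after IFG at 4 h. Its LPS replicates spread over almost 2 log2 units, yet none reached the IFG range, and only the LPS mean of 2.88 ± 0.97 (SD, n = 3) was called. Slfn2 read 2.88, 2.70 and 3.15 after LPS and 1.46, 1.55 and 2.09 after IFG. It rose after both, with means of 2.91 and 1.70. The Schlafen genes lie together and share sequence, and signal shared between their probes was not tested.

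Daxx and Sp100 are proteins of nuclear bodies that silence incoming viral DNA. Daxx read 3.11, 2.95 and 2.97 after LPS and 1.10, 1.00 and 1.55 after IFG at 4 h. Its LPS replicates were tightly grouped at 3.01 ± 0.09 (SD, n = 3) and lay well above the IFG replicates, whose mean of 1.22 was also called (0.93, under 2-fold, from arrays with treated RNA in Cy5 alone). Sp100 read 2.17, 2.18 and 1.53 after LPS and 1.49, 1.37 and 1.03 after IFG, again without overlap, and rose after both. Nmi, which binds STAT proteins and stabilises its partner IFI35, read 2.23, 2.19 and 1.25 after LPS and 1.61, 1.57 and 1.23 after IFG. For Nmi the LPS replicate 3 lay between IFG replicates, so the groups overlapped, and both means (1.89 and 1.47) were called. Tor3a, an interferon-responsive torsin ATPase, read 2.19, 2.87 and 2.05 after LPS and 0.47, 0.94 and 0.79 after IFG. Rtp4, a receptor chaperone with broad antiviral activity, read 1.95, 1.62 and 1.90 after LPS and 0.13, 0.53 and 0.94 after IFG. These last 2 genes did not overlap between stimuli and were called at 4 h only after LPS.

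Lgals9 encodes galectin 9, a glycan-binding protein, and Lgals3bp a secreted galectin ligand. Lgals9 read 2.26, 2.33 and 1.74 after LPS and 0.97, 0.70 and 0.66 after IFG at 4 h. Lgals3bp read 1.17, 1.22 and 0.85 after LPS and 0.71, 0.29 and 0.82 after IFG. Lgals9 rose 4.32-fold after LPS, with no overlap, whereas the Lgals3bp mean of 1.08 (SE 0.18, adjusted p = 1.3e-05) was just past 2-fold. It was 0.93, under 2-fold, with 1 probe per gene and 0.87 with the spread of all arrays set equal. Oas1g, at 1.19, was likewise 0.99 with equal spread and 0.80 from arrays with treated RNA in Cy5 alone. The 10 members not called at 4 h of IFG were Isg20, Mx2, Oas1a, Oas1g, Eif2ak2, Rtp4, Lgals3bp, Lgals9, Tor3a and Slfn1. The 14 that were ranged from Mx1 at 1.04 to Zbp1 at 3.43. Of the 10, Mx2, Eif2ak2 and Rtp4 were called at 2 h of IFG.

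**Figure D2:**
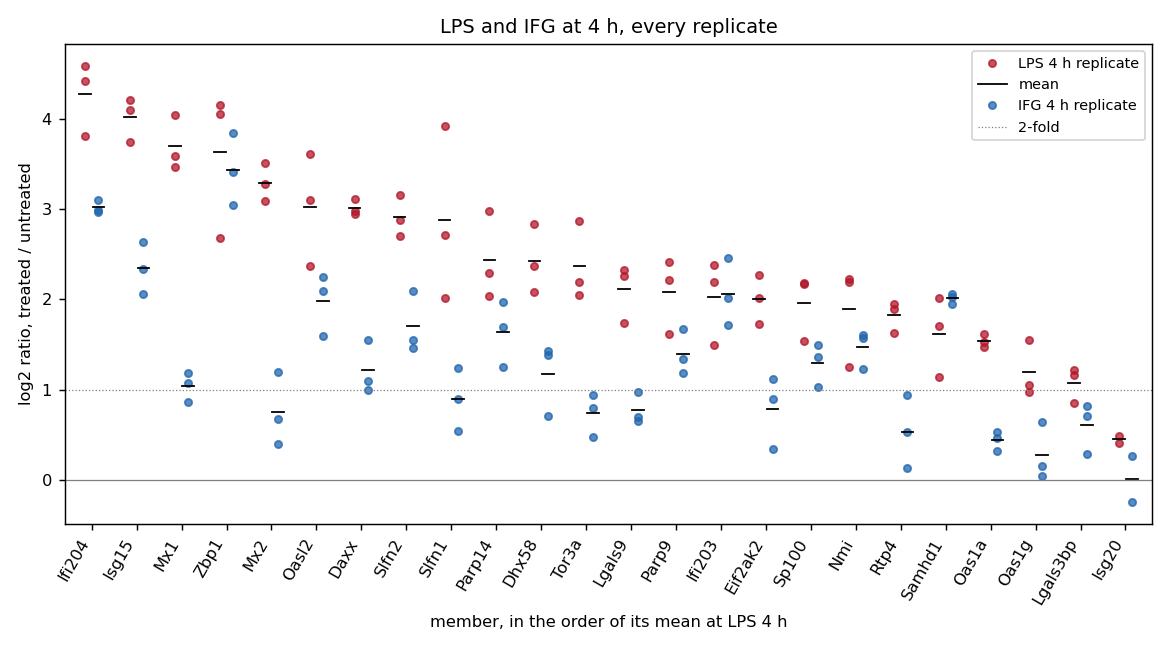
Log2 ratio of treated over untreated RNA in each replicate of the 24 tested effectors at 4 h of LPS and 4 h of IFG. The LPS points of Mx1 (4.04, 3.46 and 3.59) and Mx2 stand clear of their IFG points (1.07, 1.18 and 0.87 for Mx1), while those of Zbp1, Samhd1 and Ifi203 mix with them.

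The differences called between LPS and IFG all lay on the side of IFG at 1 h and on the side of LPS at 4 h, and how they changed with time was not tested. At 1 h, 3 members were lower after LPS than after IFG: Ifi203 (-1.51), Parp14 (-1.48) and Ifi204 (-1.04), against 0.302% of all features lower, and none was higher, against 0.922%. At 2 h, Mx2 (1.66), Mx1 (1.36) and Isg15 (1.02) were higher after LPS, against 1.44% of features. Ifi203 (-1.64) and Samhd1 (-1.20) were lower, against 0.853%. With the replicate block the 2 h count was 6 in place of 5. At 4 h, 14 members were higher after LPS and none was lower, against 2.09% of features higher and 0.638% lower. The log2 differences were largest for Mx1, 2.66 (SE 0.27, adjusted p = 2.59e-09), Mx2, 2.54 (SE 0.22, adjusted p = 7.52e-11), Slfn1, 1.99 (SE 0.36, adjusted p = 0.00011), and Daxx, 1.80 (SE 0.22, adjusted p = 1.05e-07). They were 1.67 for Isg15, 1.63 for Tor3a, 1.33 for Lgals9, 1.29 for Rtp4, 1.26 for Dhx58 and 1.25 for Ifi204. Eif2ak2 (1.22), Slfn2 (1.21), Oas1a (1.10) and Oasl2 (1.05) completed the 14. Each stimulus was used at a single dose, so these differences hold for those doses.

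In the replicates, more members stood above in IFG at 1 h and more in LPS at 4 h. Of 22 members with all 6 replicates at 1 h, 14 had every IFG replicate above every LPS replicate and 1, Slfn2, the reverse, where 7.25% and 6.58% of all features with 6 replicates were so separated. At 2 h, of 23 members, 7 stood above in IFG, 3 above in LPS, and 13 overlapped, against 10.2% and 9.23% of features above in IFG and in LPS. At 4 h, of 23 members, 18 stood above in LPS, none above in IFG, and 5 overlapped, against 10.3% and 11.5% of features. For Ifi204 the difference was -1.04, -0.90 and 1.25 at 1, 2 and 4 h, and for Ifi203 it was -1.51, -1.64 and -0.04. Zbp1 (0.20, SE 0.43, adjusted p = 0.931), Samhd1 (-0.39, SE 0.14, adjusted p = 0.0886) and Ifi203 (-0.04, SE 0.27, adjusted p = 0.98) were not distinguished between the stimuli at 4 h. Oas1g (0.91), Parp14 (0.80), Parp9 (0.68) and Sp100 (0.67) had an adjusted p under 0.05 but less than 2-fold. The count of 14 at 4 h was 5, namely Mx1, Mx2, Slfn1, Daxx and Tor3a, when the spread of all arrays was set equal. Oasl2 was lost without IFG 4 h replicate 1 (0.85) or LPS 4 h replicate 2 (0.76), from arrays with treated RNA in Cy3 alone (0.92), and when only the compared conditions were fitted (limma's adjusted p = 0.0676). Eif2ak2 was 1.00, just under the threshold, without IFG 4 h replicate 1. With exact zeros kept as values, Isg15 (0.79) and Eif2ak2 (0.76) were under 2-fold. That setting also averaged in 1 more probe of each gene, otherwise left out by the filter. Those probes had a value in 4 (Isg15) and 5 (Eif2ak2) of 45 replicates. The other Isg15 probe had a value on all 90 arrays, so for Isg15 the added probe was the only change to the values. How far the added probe moved Eif2ak2 was not tested.

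**Figure D3:**
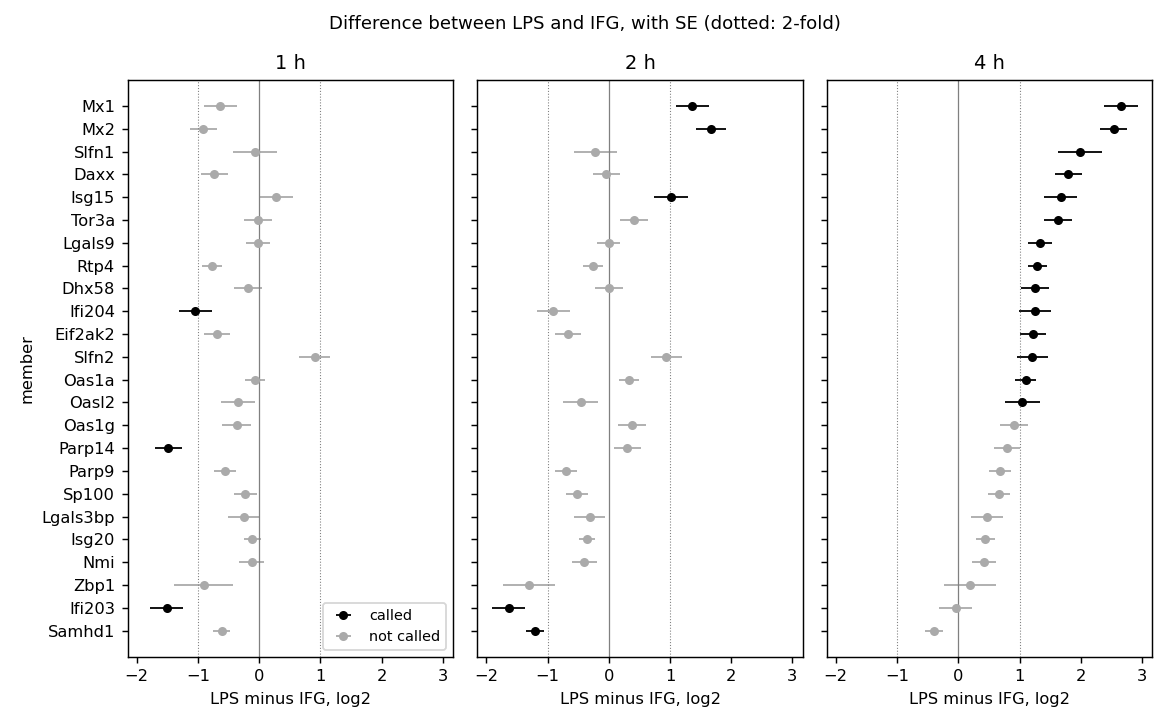
Difference of the log2 ratios, LPS minus IFG, for the 24 tested effectors at 1, 2 and 4 h; bars are standard errors and black points are called. Differences at 1 h reach down to -1.51 (Ifi203), and at 4 h they reach up to 2.66 (Mx1).

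The members differed in when they rose. Slfn2 was the only member called at 1 h of LPS, with replicates of 2.02, 1.46 and 1.83 (mean 1.77, SE 0.18, adjusted p = 1.66e-09). It was high in every LPS replicate from 1 h on, reaching 2.26 at 2 h and 2.91 at 4 h. After IFG the members called at 1 h were Parp14 (1.76), Ifi204 (1.47), Ifi203 (1.37) and Mx2 (1.19). Parp14 replicates at 1 h read 1.58, 1.67 and 2.03 after IFG and 0.12, 0.31 and 0.40 after LPS, far apart. By 2 h they read 1.90, 2.00 and 2.30 after IFG and 2.11, 2.37 and 2.63 after LPS, and the groups overlapped. Over the LPS course 9 members were first called at 2 h and 13 at 4 h, against 1.09% and 2.05% of all features. Over the IFG course 9 were first called at 2 h and 4 at 4 h, against 0.716% and 0.819%.

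Between 2 and 4 h, 16 members rose under LPS, against 1.47% of all features. The largest gains were 2.73 (SE 0.43, adjusted p = 2.54e-05) for Zbp1, 2.68 (SE 0.26, adjusted p = 4.5e-09) for Ifi204 and 2.67 (SE 0.36, adjusted p = 1.34e-06) for Slfn1. Slfn1 read 0.49, -0.06 and 0.21 at 2 h of LPS, indistinct from 0, against a lowest replicate of 2.01 at 4 h. Under IFG none of the 24 was called between 2 and 4 h by limma, against 0.319% of features higher, while 7 had an unadjusted p under 0.05, 5 of them higher and 2 lower. Zbp1 had the highest of these differences, 1.23 (SE 0.43, adjusted p = 0.212), past 2-fold but not past the test. Rtp4 had the lowest, -0.83 (SE 0.16, adjusted p = 0.00259), and Samhd1 differed by 0.69 (SE 0.14, adjusted p = 0.00596), both under 2-fold. Under LPS+IFG 8 members rose between 2 and 4 h, against 0.974%: Slfn1 (2.44), Zbp1 (1.63), Lgals9 (1.58), Mx1 (1.43), Ifi204 (1.29), Dhx58 (1.21), Sp100 (1.06) and Oasl2 (1.01). This count was 5 without LPS+IFG 2 h replicate 3, LPS+IFG 4 h replicate 1 or LPS+IFG 4 h replicate 2, 2 with equal spread, and 4 when the fit held only the conditions compared. Expressed on the log2 scale, the 2 h value was a median 35.6% of the 4 h value over the 23 members called at 4 h of LPS, from 7.36% (Slfn1) to 97.3% (Parp14). Over the 14 called at 4 h of IFG it was 78.5%, from 49.5% (Nmi) to 126% (Parp14), and over the 21 called at 4 h of LPS+IFG it was 65.0%. Left out of the IFG share were Mx2, Eif2ak2 and Rtp4, called at 2 h of IFG but not at 4 h. Their IFG means at 2 and 4 h were 1.22 and 0.75 for Mx2, 1.21 and 0.79 for Eif2ak2, and 1.36 and 0.54 for Rtp4.

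**Figure D4:**
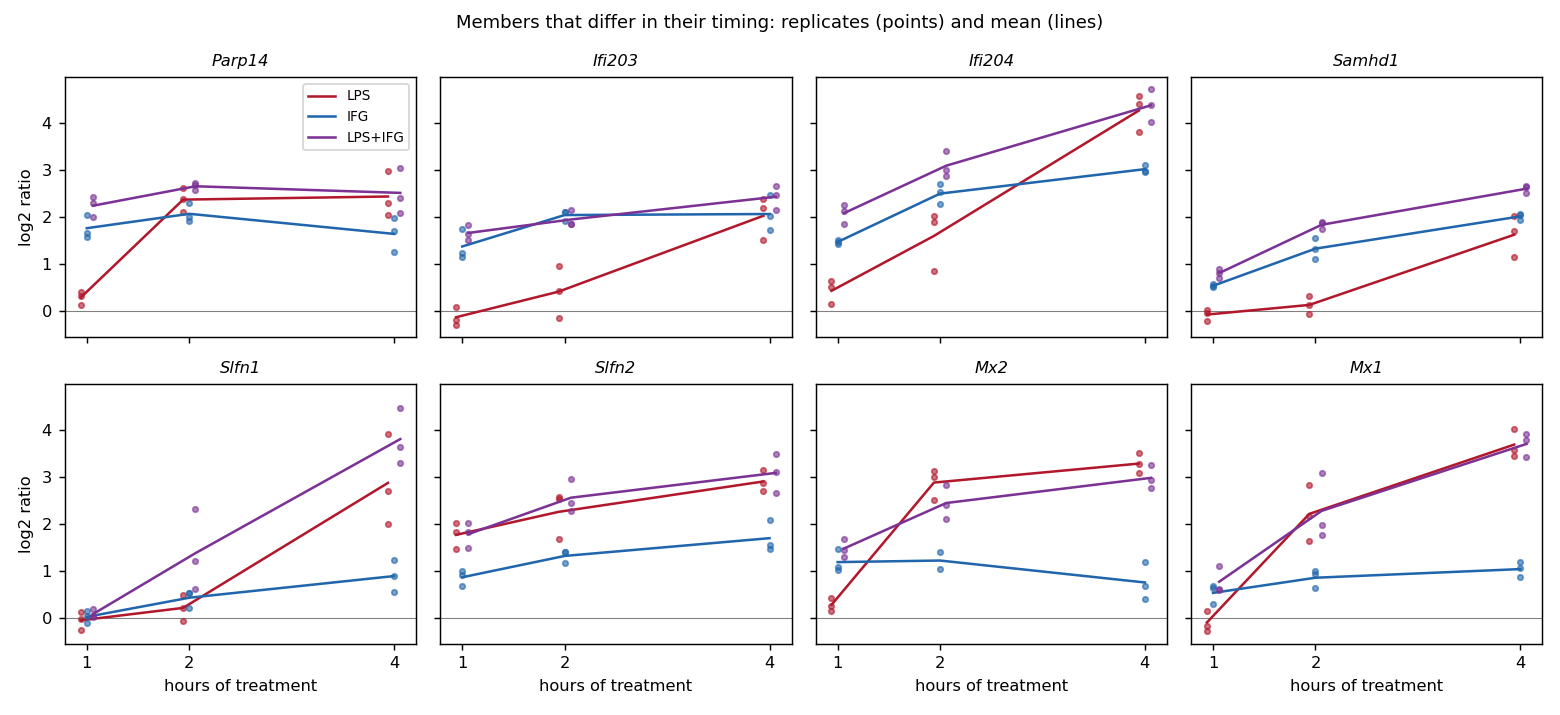
Log2 ratio of treated over untreated RNA at 1, 2 and 4 h of LPS, IFG or LPS+IFG for 8 effectors; points are replicates and lines join the means. Parp14 is near its 4 h level by 2 h in all 3 treatments, Slfn1 rises late under LPS from 0.21 to 2.88, and Mx1 under IFG stays at 0.53 to 1.04.

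Under LPS+IFG more members had risen by 1 h than under LPS, and the median log2 ratio at 4 h was 2.38, against 2.24 under LPS. At 1 h, Parp14 replicates read 2.00, 2.30 and 2.42 under LPS+IFG, above all its LPS replicates. At that time 6 members were higher than under LPS alone: Parp14 (1.96), Ifi203 (1.80), Ifi204 (1.66), Mx2 (1.20), Rtp4 (1.18) and Daxx (1.09), against 0.629% of features. With the set number as a replicate block there were 7 such members at 1 h and 5 at 2 h. Of these, Rtp4 was the least variable, with 1.23, 1.28 and 1.23 under LPS+IFG and 0.14, -0.14 and 0.21 under LPS. At 2 h, 4 members were higher than under LPS, namely Samhd1 (1.71), Ifi203 (1.54), Zbp1 (1.54) and Ifi204 (1.50), against 0.871%, and 2 with equal spread. At 4 h none was called by limma, against 0.81% of features, and 2 had an unadjusted p under 0.05. Samhd1 came nearest: it read 2.66, 2.52 and 2.64 under LPS+IFG and 1.70, 2.01 and 1.14 under LPS, without overlap, and its difference of 0.98 (SE 0.14, adjusted p = 1.24e-05) was just under 2-fold. The 4 h count was 2 without LPS 4 h replicate 1 and 1 without LPS 4 h replicate 2 or LPS+IFG 4 h replicate 2.

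Set against IFG alone, the combination was higher for 1 member at 1 h, Isg15 (1.20, SE 0.27, adjusted p = 0.00678), against 1.04% of features. That call was lost without IFG 1 h replicate 1 or LPS+IFG 1 h replicate 3. Isg15 read 1.57, 1.48 and 2.55 under LPS+IFG, 0.48, 0.72 and 0.79 under IFG and 0.70, 0.98 and 1.13 under LPS at 1 h, so replicate 3 of the combination lay apart. At 2 h, 4 members were higher than under IFG, Isg15 (1.78), Mx1 (1.43), Slfn2 (1.24) and Mx2 (1.23), against 1.69%. At 4 h, 13 were higher, against 2.12%, led by Slfn1 (2.92), Mx1 (2.67), Mx2 (2.23) and Daxx (1.79). With equal spread these counts were 0, 0 and 4. Slfn1 read 4.48, 3.32 and 3.65 under LPS+IFG at 4 h, the largest mean it reached, against 0.89, 0.55 and 1.24 under IFG.

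The log2 ratio under LPS+IFG was also set against the sum of the log2 ratios under LPS and IFG alone. This sum stands for a product of the ratios, and a sum of the ratios themselves was not tested. At 1 h no member differed from that sum by limma, against 0.0862% of features in either direction, and 1 had an unadjusted p under 0.05. At 2 h, Parp14 (-1.78, SE 0.26, adjusted p = 0.000147) and Mx2 (-1.66, SE 0.29, adjusted p = 0.00111) fell short of the sum, against 0.172% of features. This count was 3 with the replicate block, 1 without IFG 2 h replicate 3, 4 without LPS 2 h replicate 3, and 7 with equal spread. At 4 h, 14 members fell short, against 1.15%, most of all Zbp1 (-3.00), Ifi204 (-2.91), Isg15 (-2.36) and Oasl2 (-1.90), while 15 did with the replicate block and 9 with only the compared conditions fitted. Zbp1 read 4.40, 4.32 and 3.49 under the combination, against 4.06, 4.15 and 2.68 under LPS and 3.41, 3.85 and 3.05 under IFG, and these 3 groups overlapped. Slfn1 lay near the sum, with a difference of 0.04 (SE 0.44). No member was called above the sum at 1, 2 or 4 h, where 0.0862%, 0.129% and 0.233% of features were.

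2MA alone left the effectors below the 2-fold threshold. By limma no member was called, and 3, 1 and 15 had an unadjusted p under 0.05 at 1, 2 and 4 h, all higher except 1 at 1 h. At 4 h, 10 members had an adjusted p under 0.05, all higher than untreated, against 1.31% of features. Isg15 had the largest of these, with replicates of 1.50, 1.12 and 0.29. These replicates were far apart, and the mean was 0.97 (SE 0.19, adjusted p = 0.00296). Ifi204 read 1.58, 0.80 and 0.34, with its highest value in the same replicate. The means were 0.90 for Ifi204, 0.82 for Parp14, 0.79 for Slfn2, 0.76 for Daxx, 0.71 for Mx2 and 0.70 for Mx1. Ifi203, Tor3a and Rtp4 made up the 10, at 0.69, 0.69 and 0.46. Parp14 was the steadiest of the leading genes, at 0.92, 1.01 and 0.52. Without 2MA 4 h replicate 3, 2 members passed the 2-fold threshold. Lgals3bp had the lowest mean ratio of any tested member in any condition, -0.68 at 1 h of 2MA (adjusted p = 0.0565), from replicates of -1.22, -0.03 and -0.79 that did not hold together. Its 2 probes gave -0.27 and -1.09 there.

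Adding 2MA to LPS gave no called difference from LPS in any member by limma at 1, 2 or 4 h, against 0.069%, 0.0259% and 0.112% of all features. Unadjusted p-values under 0.05 were seen for 1, 2 and 2 members, all higher. Isg15 had the largest difference at 1 h, 0.74 (SE 0.27, adjusted p = 1), from replicates of 1.78, 1.41 and 1.84 under LPS+2MA and 0.70, 0.98 and 1.13 under LPS. Those replicates did not overlap. At 4 h Ifi203 had the largest, 0.70 (SE 0.27, adjusted p = 0.574), reading 2.80, 2.85 and 2.53 against 1.50, 2.38 and 2.20, again without overlap. The median difference over the 24 members was 0.04, 0.13 and 0.17 at 1, 2 and 4 h.

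The other 6 measured members had fewer than 2 replicates with a value in at least 1 condition and were not tested. Some of the gaps fell where the ratios were largest. Ifih1 (MDA5), the sensor of long double-stranded RNA, read 2.27, 2.01 and 1.70 at 1 h of LPS and 3.60, 3.53 and 2.94 at 2 h. These were the largest early ratios of any measured member after LPS. At 4 h of LPS and of LPS+2MA it had no value on any of 6 arrays, and 1 replicate of LPS+IFG read 4.15. After IFG its means were 0.38, 1.03 and 1.50 at 1, 2 and 4 h. Slfn4 had similar gaps, with means of 0.75 and 1.82 at 1 and 2 h of LPS, no value at 4 h, and 3.79 in 1 replicate of LPS+IFG. Over all probes with 6 values at 2 h of LPS, 2 of 124 with a mean of at least 2 (1.61%) had none at 4 h, against 1 of 13738 with a mean between -1 and 1 (0.00728%). Ifih1 itself was 1 of those 2, and the other was no member. The cause of these gaps was not tested.

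Usp18, the protease that removes ISG15 and damps the type I interferon receptor, read 3.50 and 3.28 at 4 h of LPS in the 2 replicates with a value and 0.71, 0.33 and 1.02 at 4 h of IFG. The LPS values lay far above the IFG values. Under LPS+IFG it read 3.23, 2.75 and 2.73, and 1 replicate of LPS+2MA read 3.61. Slfn3 read 3.15 and 2.99 in 2 replicates of LPS at 4 h and 0.60, 0.87 and 1.26 after IFG. Adar, the deaminase that edits adenosines in double-stranded RNA, read 2.09, 1.94 and 1.64 at 4 h of LPS and 2.35, 1.66 and 1.66 under LPS+IFG, which overlapped. Ifitm3, which blocks viral entry at endosomes, had values in 26 of 45 replicates, with ratios from -0.07 (LPS, 2 h) to 0.78 (LPS+IFG, 4 h). At 4 h of IFG it read 0.27, 0.37 and 0.58. The remaining 15 of the 45 genes were not measured here: Oas1b, Oas2, Oas3, Oasl1, Rigi, Ifi35, Ifi44, Ifi205, Bst2, Parp12, Dtx3l, Xaf1, Znfx1, Slfn5 and Slfn8.

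Of 50 genes listed for the pathway above and beside the effectors (interferons, receptors, kinases, STAT and IRF factors, adaptors and partner enzymes), 42 were measured and 40 tested. After LPS, 2, 5 and 21 of the 40 were called higher at 1, 2 and 4 h, and after IFG 4, 12 and 14, read against the same shares of all features as the members. LPS+IFG gave 10, 17 and 21 higher, and LPS+2MA 2, 7 and 22. The LPS counts were 1 at 1 h without LPS 1 h replicate 1 and 8 at 2 h without LPS 2 h replicate 3, and the LPS+2MA count at 1 h was 1 without LPS+2MA 1 h replicate 1. The IFG count at 1 h was 7 with equal spread. After 2MA none was called by limma, with 6, 5 and 13 at an unadjusted p under 0.05. Ifnb1, which encodes interferon beta, read 2.00, 2.07 and 2.21 at 1 h of LPS and 3.64, 3.33 and 3.28 at 2 h. It rose before most effectors did, and at 4 h read 3.73, 2.11 and 3.76, with replicate 2 lowest. After IFG its means were 0.03, 0.16 and 0.54, none called. Under LPS+2MA its means were 3.31, 4.86 and 4.67.

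Among the transcription factors of the pathway, Irf1 and Irf8 were lower and Irf7 higher after LPS than after IFG at 4 h, and the other tested ones were not called in that comparison. Irf1 read 3.44, 2.95 and 3.95 at 1 h of IFG and 0.62, 0.19 and 0.97 at 1 h of LPS, far apart. At 4 h its difference, LPS minus IFG, was -1.15 (SE 0.26, adjusted p = 0.00174), and that of Irf8 was -1.51. Irf7, which amplifies type I interferon production, was higher after LPS than after IFG at 4 h, with 2.04, 1.99 and 1.59 against 0.57, 0.80 and 0.91 (difference 1.11, SE 0.17, adjusted p = 7.02e-06). Stat2 at 1 h read -0.74, -0.47 and -0.53 after LPS and 0.82, 1.04 and 1.08 after IFG, on opposite sides of 0. By 4 h it had risen after both, to 2.66 and 1.74. Irf9, the DNA-binding partner of STAT2, was called at 4 h of LPS (1.07, 0.89 and 1.06) and read 0.15, 0.13 and 0.07 after IFG. Its LPS mean of 1.01 lay close to the 2-fold threshold. At 4 h its mean of 0.74 under LPS+IFG was not called, while that of 1.17 under LPS+2MA was. Calls of single pathway genes were not followed under other settings. Herc6, a ligase known to attach ISG15 in mouse cells, and Tlr3, the endosomal receptor for double-stranded RNA, were next to Ifnb1 in size at 4 h of LPS, at 3.18 and 3.20. Tlr4, the LPS receptor, was the only listed pathway gene called lower in any condition, at -1.26 after 4 h of LPS+IFG.

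**Figure D5:**
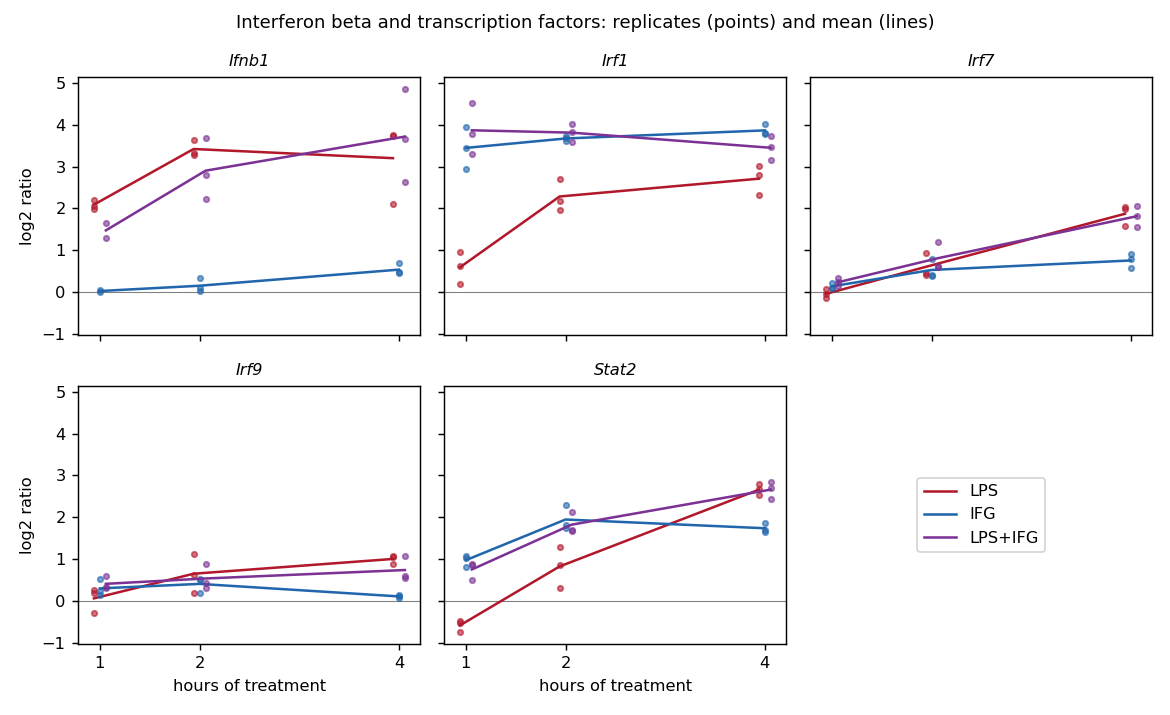
Log2 ratio of treated over untreated RNA at 1, 2 and 4 h of LPS, IFG or LPS+IFG for interferon beta and 4 transcription factors; points are replicates and lines join the means. Ifnb1 is at 2.09 after 1 h of LPS and stays at or below 0.54 under IFG, while Irf1 is at 3.45 after 1 h of IFG.

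Every array had a median of 0, and no member reached the highest value on the arrays, 6.64. From 7.84 to 17.0% of the values on an array were exact zeros, taken as missing. Marker lists of T cells, B cells, fibroblasts and epithelium (4, 4, 5 and 5 genes tested) had no gene called in any condition, with ratios of -0.27 to 0.40. Of 6 tested macrophage markers, 2 were called, Csf1r, with ratios down to -1.29, and Fcgr1, with ratios up to 1.97. A ratio cannot show whether a gene is present, so the label of the line could not be checked against marker levels. Precision is limited by how many arrays there were, with a typical residual SD of 0.20 for a replicate (median over features).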

How the data were processed

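Judged by their values, the deposited numbers are log2 ratios between the 2 channels of each array. The steps by which the authors made them (image reading, background, normalization) are, in the sources used here, not given. Cy5 over Cy3 was taken as the direction, since 5 of 5 tested genes known to be raised by LPS and 4 of 4 known for IFG then lay above 0 at 1 h. Signs were turned where treated RNA was in Cy3. Exact zeros were treated as missing. The dye-swapped pair of each set was averaged into a replicate, which needed both arrays. The filter kept probes with values in 2 or 3 replicates per condition (13711 of 16281), which were averaged per gene, giving 11600 features. Least squares fitted 15 condition means to the 45 replicates in R 4.3.3, with variances moderated by limma 3.58.1 and two-sided p-values adjusted by Benjamini and Hochberg within each of 33 comparisons. The fitting code was tested on simulated data with known changes. Files were read and plots drawn in Python 3.11.15 (pandas 2.3.3; numpy 2.4.6; plots with matplotlib 3.10.9).

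Sets that share a number deviated together, with a correlation above 0.1, in 86 of 90 cases (median 0.433), and in 3 of 3 for each pair of treatments compared at 1 time, except LPS and IFG at 2 h, with 2 of 3. The fit without the replicate block is reported throughout, with the blocked count beside it where it moved. Alternatives covered the handling of zeros, probes, filter, array spread, dye orientation, block, conditions fitted and each replicate left out. Every tested member was named. The members and gene lists were chosen with earlier results of these data known. Promoter sequences are RefSeq's.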

Additional observations from a re-analysis of the deposited data

Results flagged for a closer look

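The number of members called for a gain between 2 and 4 h was not the same under each treatment. Under LPS 16 members rose between these times and under LPS+IFG 8 did, while under IFG none was called. The gains were led by Zbp1 under LPS (2.73 on the log2 scale) and by Slfn1 under LPS+IFG (2.44). These are differences between time points within a treatment, each tested by limma, and the gain under one treatment was not tested against the gain under another.

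Members left out of the tests for missing values had at least 2-fold ratios on every array with a value in several conditions, over at least 4 such arrays, and no test was made of them. Means are over replicates with both arrays. At 4 h, Usp18 had a mean log2 ratio of 3.39 with LPS, 2.90 with LPS+IFG and 3.61 with LPS+2MA. Ifih1 stood at 1.99, 2.37 and 2.23 at 1 h of LPS, LPS+IFG and LPS+2MA, and at 3.355, 3.46 and 3.76 at 2 h, with 1.50 at 4 h of IFG. Adar stood at 1.89, 1.89 and 2.00 at 4 h of LPS, LPS+IFG and LPS+2MA. Slfn3 stood at 1.76 and 1.66 after 2 h with LPS+IFG and LPS+2MA, and at 3.07 after 4 h with LPS. Slfn4 stood at 1.76 after 1 h with LPS+IFG. After 2 h it stood at 1.82, 2.30 and 1.89 with LPS, LPS+IFG and LPS+2MA. Groups of 3 replicates were not tested for outlying values.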

How the results depend on the processing

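Across 474 alternative counts of called members, 435 stayed within 1.5 times the reported count, 16 were smaller and 23 larger. The 662 alternative values for single members covered only calls at 4 h. They were calls after LPS, after IFG, or in LPS minus IFG. Of these values, 638 kept the call, 24 lost it and none changed sign. Members not called there were not followed. Of 180 alternative counts of pathway genes, 171 stayed within 1.5 times. The other 9 were 1 (without LPS 1 h replicate 1, or from Cy5 arrays alone) or 0 (a value in all 45 replicates) for LPS 1 h, the same for LPS+2MA 1 h without its replicate 1 and in those fits, 8 (without LPS 2 h replicate 3, or from Cy3 arrays alone) for LPS 2 h, and 7 with equal spread for IFG 1 h. The counts of 0 were fixed by the filter. The pathway genes called at 1 h of LPS and of LPS+2MA, Ifnb1 and Trex1, lacked a value in some replicate and were not tested in that fit. Turning the sign of every array would turn every direction and leave sizes and counts as they are. With the spread of all arrays set equal, the members called numbered 2 for LPS 1 h, 7 for IFG 1 h, 5 for LPS minus IFG at 4 h, 2 for LPS+IFG minus LPS at 2 h, 0, 0 and 4 for LPS+IFG minus IFG at 1, 2 and 4 h, 7 for LPS+IFG minus the sum at 2 h, 1 lower for IFG 4 h minus 2 h, and 2 for LPS+IFG 4 h minus 2 h. Some of the next settings tested other numbers of members than the 24 of the main fit, so their counts can include other members. With zeros kept as 0 (30 tested), LPS 1 h gave 2. From arrays with treated RNA in Cy3 alone (25 tested), LPS 1 h gave 2 and 2MA 4 h gave 2. From those in Cy5 alone (26 tested), 2MA 4 h gave 1, LPS+IFG minus LPS at 4 h gave 1, and IFG 4 h minus 2 h gave 1, lower. With 1 probe per gene (24 members tested), or with a value required in all 45 replicates (20 tested), 2MA 1 h gave 1, lower (Lgals3bp), and LPS+IFG minus LPS at 4 h gave 1. In those fits Lgals3bp rested on 1 of its 2 probes, the one with -1.09 at 1 h of 2MA. A value in all 45 replicates, or only the compared conditions fitted, gave 1 for the sum at 2 h. The latter fit also gave 9 for the sum at 4 h and 4 for LPS+IFG 4 h minus 2 h. For the other changes the cause was not tested. Leaving out 1 replicate at a time moved some counts from 0 or by more than 1.5 times. LPS 1 h lay between 1 and 2, 2MA 1 h between 0 and 1, and 2MA 4 h between 0 and 2. LPS+IFG minus LPS at 4 h lay between 0 and 2, and LPS+IFG minus IFG at 1 h between 0 and 2. The sum at 2 h lay between 1 and 4, IFG 4 h minus 2 h between 0 and 1, and LPS+IFG 4 h minus 2 h between 5 and 11. Other counts moved less, such as 12 to 15 for LPS minus IFG at 4 h and 9 to 14 for LPS+IFG minus IFG at 4 h. With the set number as a replicate block, LPS minus IFG gave 3, 6 and 14 members at 1, 2 and 4 h, LPS+IFG minus LPS 7, 5 and 0, LPS+IFG minus IFG 1, 4 and 13, LPS+2MA minus LPS 0, 0 and 0, and the sum 0, 3 and 15. In these 15 comparisons every call made without the block was kept with it; the treated-against-untreated and 4 h minus 2 h comparisons were not fitted with it. Keeping replicates with 1 of 2 arrays was an alternative chosen after seeing the data. Missing spots limit what can be said of Ifih1 and Slfn4 at 4 h of LPS.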
